A study of Mus musculus with 4 samples.

Results

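The acute phase plasma proteins described here are the products of 9 genes that the liver raises in inflammation, namely Apcs, Hp, Hpx, Orm1, Saa1, Saa2, Saa3, Lcn2 and Itih3. They were followed through every array probe set whose only gene symbol in the platform annotation was one of these names. That gave 11 probe sets of 12422, for 8 of the 9 genes, out of 8251 genes named by the array. Hpx, Saa2 and Lcn2 had a pair of probe sets each, the other 5 genes had 1, and no probe set named Saa1 alone. A probe set shared by Orm1 and Orm2 was left out.

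The acute phase response is the shift in liver secretion that follows injury or infection. Macrophages release interleukin 1, tumour necrosis factor and interleukin 6, which act on hepatocytes through NF-kappa B, STAT3 and C/EBP transcription factors, and glucocorticoids from the adrenal gland enhance many of these responses. The secreted proteins bind debris, haem, haemoglobin, iron carriers and lipids, and several of them are also made at a steady level in healthy liver.

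Liver RNA came from male C57BL/6 mice that were either sham-operated or bilaterally adrenalectomised (ADX), an operation that removes the main source of corticosterone. Each operation was sampled at zeitgeber time (ZT) 2 and ZT14, counted in hours from lights on, with 1 Affymetrix MG_U74Av2 array for each of the 4 groups. Per the labels, ADX was performed by the dorsal approach under ketamine (91 mg/kg) and xylazine (3.6 mg/kg), ADX mice drank 0.9% NaCl, sham-operated mice drank water, and all were fed standard chow ad libitum. The labels give no age, no interval after the operation, no corticosterone level and no number of animals behind an array, so no difference has a replicate check.

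Values are the deposited array Signal after scaling each array to a common trimmed mean. A difference of 2-fold or more was counted where the brighter array was called Present. This is a rule of size, and it carries no p-value. Present calls covered 44.4% to 47.0% of probe sets, and all 9 hepatocyte markers on the array were Present on every array, and 0 of 3 bile duct markers were Present on any. Of markers of other cells, 6 of 8 endothelial, 7 of 8 stellate and 3 of 10 lymphocyte genes were Present on at least 1 array. In a tissue sample, fewer cells of a type and less RNA per cell cannot be told apart. The 4 comparisons reuse the same 4 arrays: the sham and ADX day-night pairs share no array with each other, but each shares arrays with both comparisons of ADX with sham.

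Apcs alone of the 9 genes reached 2-fold, in a day-night comparison. Its signal was about 2-fold lower at ZT14 in both sham and ADX liver. Itih3 and Orm1 were also lower at ZT14 on both operations, by smaller amounts. For Hpx, and for Saa2 and Lcn2 by 1 of 2 probe sets each, both ADX signals lay above both sham signals. Apcs and Saa3 were also higher in ADX at each time on the scaled signals, but without that separation. Saa3, and Lcn2 by the same probe set, were highest on the ADX ZT14 array, and Hp varied by no more than 1.12-fold over the 4 arrays. By the size rule, 1 of 10 member probe sets passed in the ADX day-night pair, against 5.52% of all probe sets that could pass there. For calls in the lower direction that background was 2.53%. The count was 0 of 9 in the sham pair (all probe sets, 6.16%), 0 of 10 for ADX against sham at ZT2 (2.65%) and 0 of 10 at ZT14 (4.2%). Past 1.5-fold were 2 of 9 in the sham pair (Apcs lower and 1 Saa2 probe set higher), where 18.6% of all did so, and 2 of 10 in the ADX pair (Apcs and Itih3 lower; 17.4%). For ADX against sham there were 2 of 10 at ZT2 (both Saa2 probe sets higher; 10.7%), and 1 of 10 at ZT14 (an Hpx probe set higher; 14.9%). Apcs alone was lower at ZT14 past 1.5-fold in both pairs, as 2.43% of all probe sets were. In each list of 4 signals that follows, the sham array of ZT2 comes first, then the sham array of ZT14, and then the ADX arrays in the same way.

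**Figure D1:**
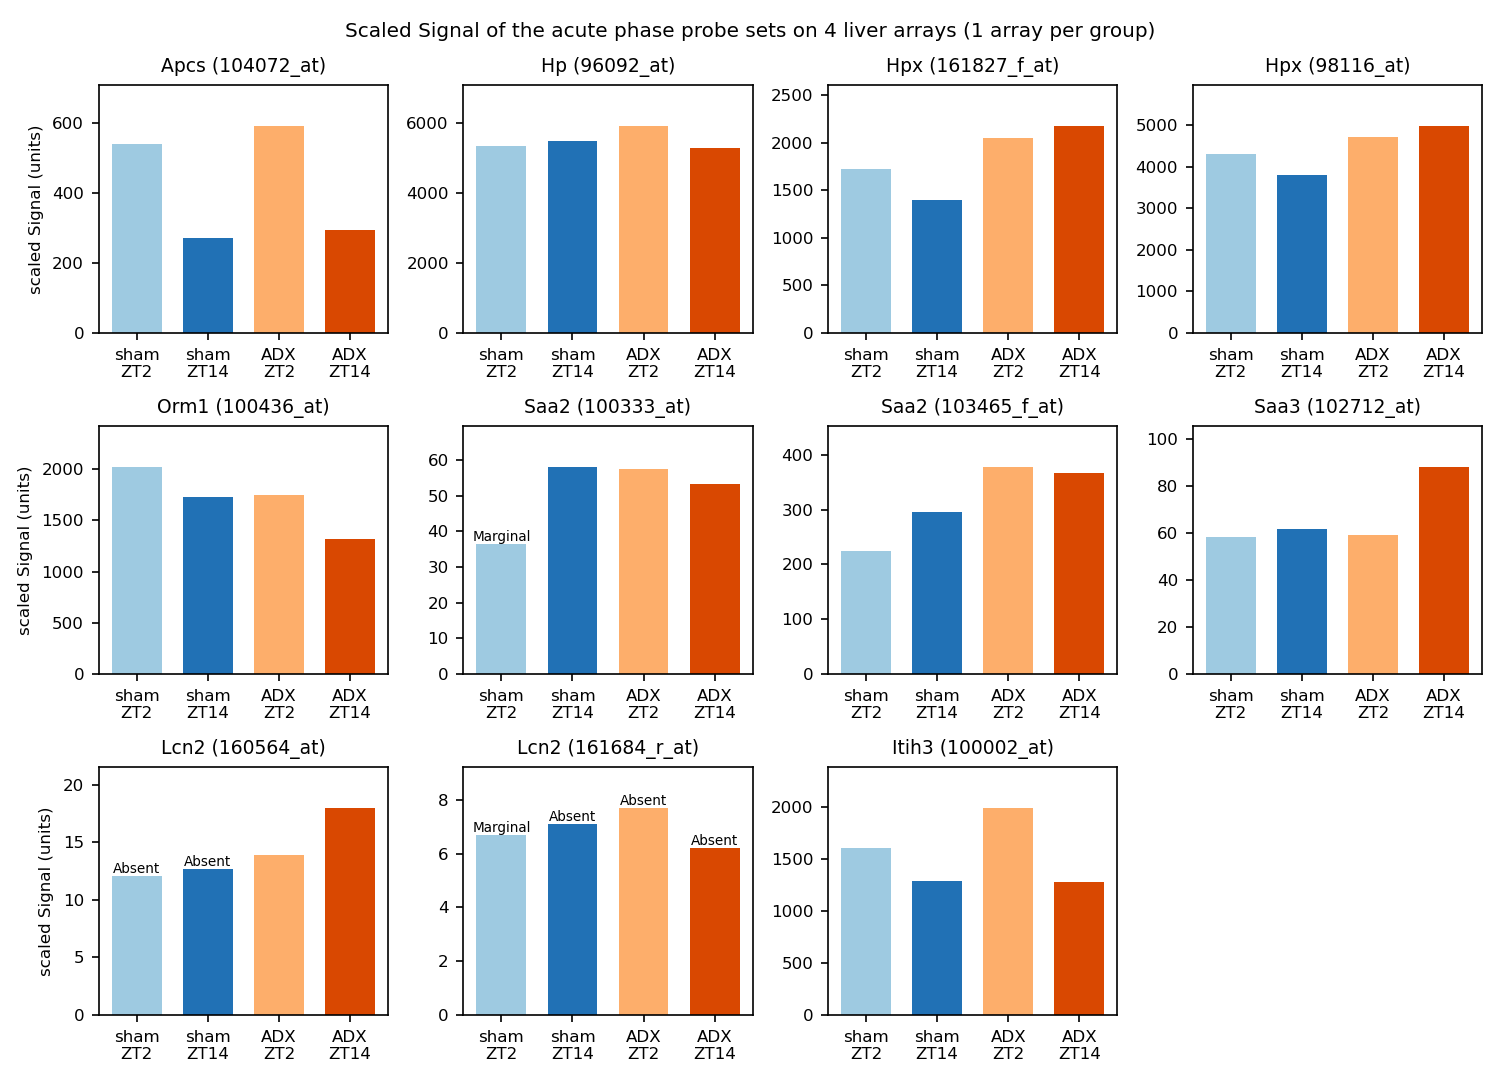
Scaled Signal in array units (linear axis from 0) of the 11 member probe sets on the 4 arrays (sham at both times, then ADX), 1 bar per array with no error bar because each group has 1 array; bars without a Present call carry the call. Apcs is at 538.3 and 590.5 at ZT2 and at 272.0 and 293.3 at ZT14, while Hp stays between 5281.3 and 5908.6.

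Apcs encodes serum amyloid P component, a pentraxin that binds amyloid fibrils, chromatin and bacteria and is the classical acute phase pentraxin of mice. The signal of its probe set (104072_at) was 538.3 at ZT2 and 272.0 at ZT14 in sham, and 590.5 at ZT2 and 293.3 at ZT14 in ADX, Present on all. Both ZT14 signals lay below both ZT2 signals with a wide gap, and at each time the operations lay close together. The ZT14 signal was 1.98-fold lower in sham, just short of the size rule, and 2.01-fold lower in ADX, just past it. With signals as deposited the sham pair passed too (log2 -1.06), and with quantile normalization neither did (log2 -0.96 in sham and -0.97 in ADX). Among other probe sets that could pass, 6.4% differed at least as much in the sham pair and 5.33% in the ADX pair. ADX was above sham by a log2 of 0.13 at ZT2 and 0.11 at ZT14, and with signals as deposited both turned to lower in ADX (log2 -0.04 and -0.02).

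An additive fit of time and operation was run with limma over 5872 probe sets Present on at least 2 arrays, taking the pair of arrays of each time, or of each operation, as its samples. It has 1 residual degree of freedom. Apcs had a log2 difference of -0.997 between ZT14 and ZT2 (SE 0.15), with a limma Benjamini-Hochberg adjusted p of 0.226, lower in both pairs. With the variance modelled as a trend on signal, limma gave Apcs an adjusted p of 0.00612 and called 154 probe sets (2 in the fit without the trend), and over all alternatives the adjusted p of Apcs ran from 0.00612 to 0.421. In the fit without the trend, limma called 0 of 10 member probe sets for either effect at an adjusted p under 0.05, against 0.0341% of all for time and 0% for operation. At an unadjusted p under 0.05 stood 1 of 10 for time (Apcs; 13.2% of all probe sets) and 1 of 10 for operation (Saa2 103465_f_at; 5.6% of all).

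The promoter of Apcs is shown because this gene had the clearest day-night difference of the 9. Sequences are from RefSeq (GRCm38.p6), 5′ to 3′ on the gene's strand, with the transcript start as position 0 after 250 bases, and capitals mark every match to the motifs searched.
Apcs (chr1:172895005-172895304, minus strand): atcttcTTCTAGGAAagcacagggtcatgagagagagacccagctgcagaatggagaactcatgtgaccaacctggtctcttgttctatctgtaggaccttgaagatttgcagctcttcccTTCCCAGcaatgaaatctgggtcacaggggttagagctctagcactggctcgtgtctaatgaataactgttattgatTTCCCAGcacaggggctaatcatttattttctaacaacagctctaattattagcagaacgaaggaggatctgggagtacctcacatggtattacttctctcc
Capitals mark 1 match to the STAT motif TTCNNNGAA, at positions -244 to -236, and 2 to CTGGGAA read on the other strand, the interleukin 6 response element of acute phase genes, at -129 to -123 and -52 to -46. Of all 32851 promoters of this length, 8.3% hold the STAT letters and 11.1% hold CTGGGAA on either strand. Of the 7 members with a promoter in the table (not Hp or Orm1), Apcs alone held either. Neither the E-box CACGTG (7.15% of all promoters) nor the D-box TTATGNAA (3.38%), the letters bound by clock factors, was found in the Apcs window, and C/EBP letters were not found there either.

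The genes whose log2 signals over the 4 arrays lay closest to those of Apcs, each centred on its own mean, were Hsd17b2, which encodes a steroid dehydrogenase (root mean square distance 0.057), Anp32a, which encodes a nuclear phosphoprotein (0.062), and Lasp1, which encodes an actin-binding protein (0.069). They were taken from 261 genes Present on all 4 arrays with at least a 2-fold range. Hsd17b2 had signals of 415.0, 195.9, 442.7 and 235.7. Its ZT14 signal was thus lower on both operations, by 2.12-fold in sham and 1.88-fold in ADX. With 4 arrays this likeness is a description of these arrays.

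**Figure D2:**
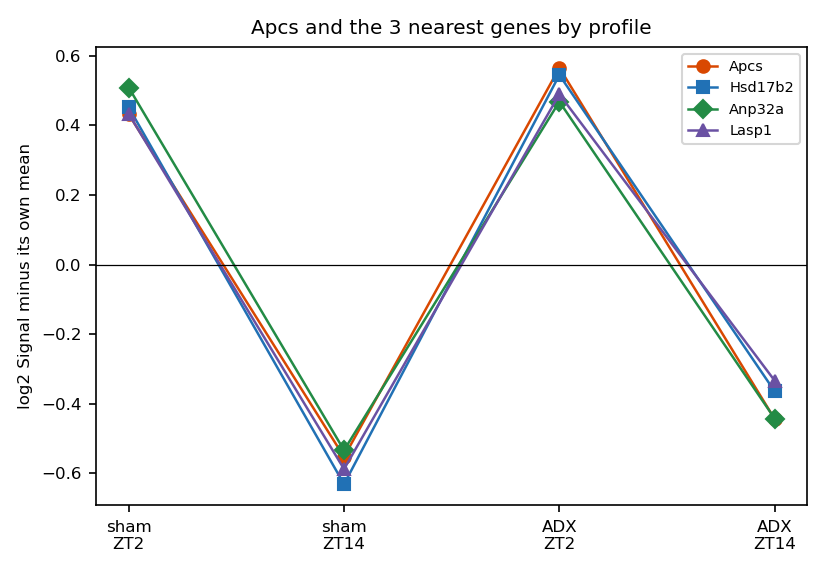
Log2 scaled Signal minus each gene's own mean over the 4 arrays (vertical axis) on each array (horizontal axis), 1 line per gene for Apcs, Hsd17b2, Anp32a and Lasp1, with 1 array per point. All 4 lines are low at ZT14 and high at ZT2 in both sham and ADX.

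Itih3 encodes heavy chain 3 of the inter-alpha-trypsin inhibitor family, plasma proteins that are linked to hyaluronan and stabilise extracellular matrix. Its probe set (100002_at) had signals of 1604.8 and 1287.5 in sham (ZT2 and ZT14), and 1994.8 and 1281.7 in ADX. Both ZT14 signals were below both ZT2 signals, and the ADX ZT2 array was the highest. The ZT14 signal was 1.25-fold lower in sham and 1.56-fold lower in ADX. The limma time effect was -0.48 (log2, SE 0.17, adjusted p = 0.383, lower in both pairs). ADX was 1.24-fold above sham at ZT2, while at ZT14 the log2 difference was -0.01, and 0.02 under quantile normalization. Among its relatives, Itih1 had ZT14 signals 1.55-fold lower in sham and 1.18-fold lower in ADX, and Itih4 1.15-fold and 1.26-fold lower, whereas Itih2 differed by a log2 of -0.08 and 0.04. These relatives were named after their values were seen.

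Orm1 encodes orosomucoid 1 (alpha-1-acid glycoprotein), a lipocalin that carries drugs and steroids in plasma. Its probe set (100436_at) had signals of 2021.0 and 1723.4 in sham (ZT2 and ZT14), and 1750.6 and 1318.9 in ADX. On the scaled signals it was the only member lower in ADX at both times, by 1.15-fold at ZT2 and 1.31-fold at ZT14. Its ZT14 signal was 1.17-fold lower in sham and 1.33-fold lower in ADX. The limma effects were -0.30 for operation (log2, SE 0.16, adjusted p = 0.831) and -0.32 for time (SE 0.16, adjusted p = 0.478), so neither passed. Its close relative Orm2, named after its values were seen, went the other way with the operation, with signals of 53.6 and 52.6 in sham and 84.3 and 93.2 in ADX, 1.57-fold and 1.77-fold higher. Orosomucoid genes are similar in sequence, and the deposited signals do not say how far their probes share targets.

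Both ZT14 signals lay below both ZT2 signals for 3 of 10 member probe sets (Apcs, Orm1 and Itih3), where 23.8% of the 5872 probe sets of the fit did, so the count is near the background. With quantile normalization Orm1 dropped out of this group, and with signals as deposited it did so too while Hp entered. Both ZT14 signals lay above both ZT2 signals for 1 of 10, Saa3, where 22.5% of all did.

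Hp encodes haptoglobin, which captures free haemoglobin, and Hpx encodes haemopexin, which captures free haem. The Hp probe set (96092_at) had signals of 5339.1, 5470.0, 5908.6 and 5281.3. These 4 signals overlapped in every grouping, and the range from lowest to highest was 1.12-fold. The day-night log2 difference was 0.03 in sham, turning to -0.04 with signals as deposited, and -0.16 in ADX.

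The Hpx probe sets both gave their lowest signal on sham ZT14 and their highest on ADX ZT14. For 98116_at the signals were 4311.4 and 3796.7 in sham, and 4721.6 and 4985.7 in ADX. For 161827_f_at they were 1719.6, 1398.8, 2051.8 and 2177.5. Both ADX signals were above both sham signals with either probe set, although with signals as deposited those of 98116_at overlapped. At ZT14, ADX was 1.31-fold above sham by 98116_at and 1.56-fold by 161827_f_at, and at ZT2 by a log2 of 0.13 and 0.25, the 98116_at value at ZT2 turning to lower with signals as deposited (log2 -0.04). The limma operation effect was 0.26 (log2, SE 0.17, adjusted p = 0.853) and 0.45 (SE 0.18, adjusted p = 0.830).

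Red cell markers also differed between these arrays. The haemoglobin gene Hba-a1 had signals of 1552.4 and 873.8 in sham, and 1260.9 and 1788.8 in ADX, 2.05-fold higher in ADX at ZT14 (log2 0.91 with signals as deposited), and Hbb-b2 had 140.0, 119.2, 122.8 and 199.7. Alas2, the haem synthesis enzyme of red cell precursors, did not share this order and was lowest on ADX ZT14, with 202.5, 178.3, 207.5 and 170.9. The summed signal of these 3 of 4 red cell markers, most of it Hba-a1, was 1895.0 and 1171.3 in sham and 1591.2 and 2159.4 in ADX. It was lowest and highest on the same arrays as Hpx, but its ZT2 arrays stood in the opposite order to those of Hpx, and Slc4a1 was Absent on all arrays. Their part in the Hpx values was not tested. Of 17 measured genes of haem and iron handling, 2 were higher at ZT14 in sham past 2-fold, the haem synthesis enzyme Alas1 and the haem oxygenase Hmox1, and 1 was lower, the endocytic receptor Lrp2. Alas1 was the 1 gene past 2-fold in ADX. For ADX against sham, Hmox1 was 2.04-fold higher and Lrp2 at least 2.13-fold lower at ZT2, and Hba-a1 was the 1 at ZT14. The Hmox1 call at ZT2 ended with signals as deposited (log2 0.85) and with quantile normalization (0.97). Both Lrp2 calls rest on Absent arrays and ended with a doubled floor (log2 -0.09), with the floor at 23.9 units and with both arrays required to be Present. Beside these counts, all probe sets passed 2-fold at 6.16% in the sham pair and 5.52% in the ADX pair. For ADX against sham, 2.65% passed at ZT2 and 4.2% at ZT14. The list's medians were -0.18 in sham, -0.09 in ADX, and -0.12 and 0.02 for ADX against sham at the earlier and later time.

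Saa1, Saa2 and Saa3 encode serum amyloid A proteins, apolipoproteins that ride on high-density lipoprotein in the acute phase. The liver makes the first pair, and Saa3 is also made by macrophages and fat. One of the probe sets annotated as Saa2 (100333_at) is described in the deposited files as serum amyloid A-1, and the other (103465_f_at) as serum amyloid A-2. RefSeq lists each of these names as a synonym of the other gene, so the values under Saa2 may hold both genes and cannot be told apart here.

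Saa2 by 103465_f_at had signals of 224.3 and 296.3 in sham (ZT2 and ZT14), and 378.0 and 367.1 in ADX. By 100333_at they were 36.4 (a Marginal call), 58.1, 57.4 and 53.4. With both probe sets the sham ZT2 array was the lowest, but only 103465_f_at kept both ADX signals above both sham signals. At ZT2, ADX was 1.69-fold above sham by 103465_f_at and at least 1.58-fold by 100333_at, while at ZT14 the former was 1.24-fold higher and the latter 1.09-fold lower. Among other probe sets that could pass, 5.76% and 8.06% differed at least as much at ZT2. The sham ZT14 signal was 1.32-fold and at least 1.60-fold above ZT2, and the ADX pair differed by a log2 of -0.04 and -0.11. The limma operation effect of 103465_f_at was 0.53 (log2, SE 0.19, adjusted p = 0.830, higher in ADX at both times), which did not pass.

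Saa3 (102712_at) had signals of 58.3 and 61.8 in sham (ZT2 and ZT14), and 59.2 and 88.0 in ADX, Present on all. The first 3 arrays lay within a narrow span and the ADX ZT14 array stood above them. That signal was 1.49-fold above ADX ZT2 and 1.42-fold above sham ZT14. The limma time effect was 0.33 (log2, SE 0.20, adjusted p = 0.529), which did not pass. Saa4, the constitutive member of the family, which is not among the 9, followed neither pattern. Its signals of 216.6, 475.2, 296.8 and 309.7 put sham ZT14 highest, 2.19-fold above sham ZT2 and past the size rule, whereas the ADX pair differed by a log2 of 0.06. Among 12 measured relatives of the members, Saa4 was the 1 gene past 2-fold in the sham pair (all probe sets, 6.16%). The neuronal pentraxin Nptx1, at least 2.05-fold higher at ZT14 on signals of 5.5 and 11.3, was the 1 in the ADX pair (all probe sets, 5.52%). For ADX against sham 0 passed (all probe sets, 2.65% at ZT2 and 4.2% at ZT14). The Nptx1 call ended with quantile normalization (log2 0.94), with a doubled floor (0.53), with the floor at 23.9 units and with both arrays required to be Present.

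The promoters of the serum amyloid A genes are shown because the probe sets of Saa1 and Saa2 cannot be told apart and Saa3 had its own pattern. Capitals again mark motif matches.
Saa1 (chr7:46742931-46743230, minus strand): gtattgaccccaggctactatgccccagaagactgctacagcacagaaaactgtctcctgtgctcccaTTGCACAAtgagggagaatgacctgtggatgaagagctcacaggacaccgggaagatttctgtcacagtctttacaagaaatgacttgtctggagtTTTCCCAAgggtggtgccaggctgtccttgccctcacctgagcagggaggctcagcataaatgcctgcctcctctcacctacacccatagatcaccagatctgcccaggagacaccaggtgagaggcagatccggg
Saa2 (chr7:46751583-46751882, plus strand): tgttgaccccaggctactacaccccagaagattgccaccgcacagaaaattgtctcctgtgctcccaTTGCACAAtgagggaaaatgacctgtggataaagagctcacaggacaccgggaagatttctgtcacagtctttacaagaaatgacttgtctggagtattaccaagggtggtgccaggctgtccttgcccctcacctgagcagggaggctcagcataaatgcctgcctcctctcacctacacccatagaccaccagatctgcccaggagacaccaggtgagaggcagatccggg
Saa3 (chr7:46715627-46715926, minus strand): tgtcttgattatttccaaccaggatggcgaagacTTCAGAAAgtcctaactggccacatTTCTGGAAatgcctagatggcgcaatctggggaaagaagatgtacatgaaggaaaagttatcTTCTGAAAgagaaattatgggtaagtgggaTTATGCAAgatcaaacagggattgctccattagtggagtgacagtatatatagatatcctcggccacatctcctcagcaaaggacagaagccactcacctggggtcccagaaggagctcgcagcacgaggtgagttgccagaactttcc
The Saa1 and Saa2 windows matched at 287 of 301 aligned positions (95.3%), and Saa3 matched Saa1 at 54.2%. By the same alignment the windows of Apcs and Itih3, members of different families, matched at 48.7%. The C/EBP letters TTNNGNAA were found in 5 of the 7 member promoters (Hpx, Saa1, Saa2, Saa3 and Lcn2), against 40.7% of all promoters. Saa1 held them at -182 to -175 and -86 to -79, and Saa2 at -183 to -176 alone. Saa3 held 4 matches, and the one at -99 to -92 is also a match to the D-box TTATGNAA, which no other member promoter held. No member promoter held the NF-kappa B letters (1.63% of all promoters), the glucocorticoid receptor letters ACANNNTGT (6.85% of all) were found in Lcn2 alone, at -152 to -144, and the Itih3 window held none of the 7 motifs. A match is a description of letters and not a site in use.

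**Figure D3:**
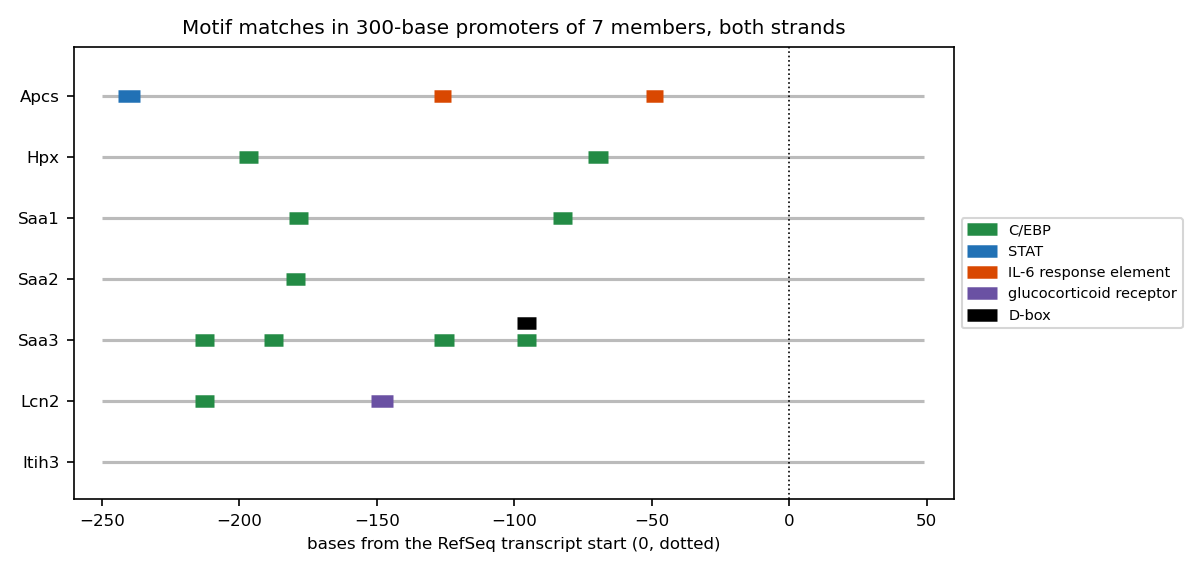
Matches to 5 of the 7 motifs searched (coloured blocks; the E-box and NF-kappa B letters had no match) on both strands of the promoters of 7 members, plotted by distance in bases from the RefSeq transcript start, with the D-box block drawn above the line. Apcs is the one row with STAT and interleukin 6 response element matches, and the D-box of Saa3 lies over its C/EBP match at -99 to -92.

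Lcn2 encodes lipocalin 2, which withholds iron from bacteria by binding their siderophores. It was near the limit of detection. By 160564_at its signals were 12.1 and 12.7 in sham, both Absent, and 13.9 and 18.0 in ADX, both Present. Both ADX signals lay above both sham signals, and ADX was at least 1.14-fold higher at ZT2 and at least 1.42-fold higher at ZT14. With the floor on low signals raised to 23.9 units all 4 differences were 0.00. Its other probe set (161684_r_at) was Present on no array, with signals between 6.2 and 7.7, and gives no comparison.

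Lcn2 and Saa3 are also made by neutrophils, macrophages and fat. Of the 11 neutrophil markers on the array, Ngp, Ltf and Mpo among them, 0 were Present on any array. Of 14 macrophage markers, 13 were Present on at least 1 array, and their summed signal ran from 1456.5 (sham ZT14) to 1701.8 (ADX ZT2), with 1556.8 on the ADX ZT14 array where Lcn2 and Saa3 were highest. The defining Kupffer cell marker Clec4f had 263.6, 221.7, 262.4 and 229.3. Of 5 fat markers, Fabp4 and Car3 were Present, and Adipoq, Retn and Lep were Absent on all arrays. Fabp4 had low signals of 9.4, 10.8, 8.1 and 5.6, and Car3 had 4496.7, 3943.4, 4898.4 and 3833.8. The hepatocyte marker Cps1 had signals of similar size (4260.8, 4524.6, 4159.9 and 4444.9). Which cells gave the Car3 signal was not tested, so it is not read here as a measure of fat.

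**Figure D4:**
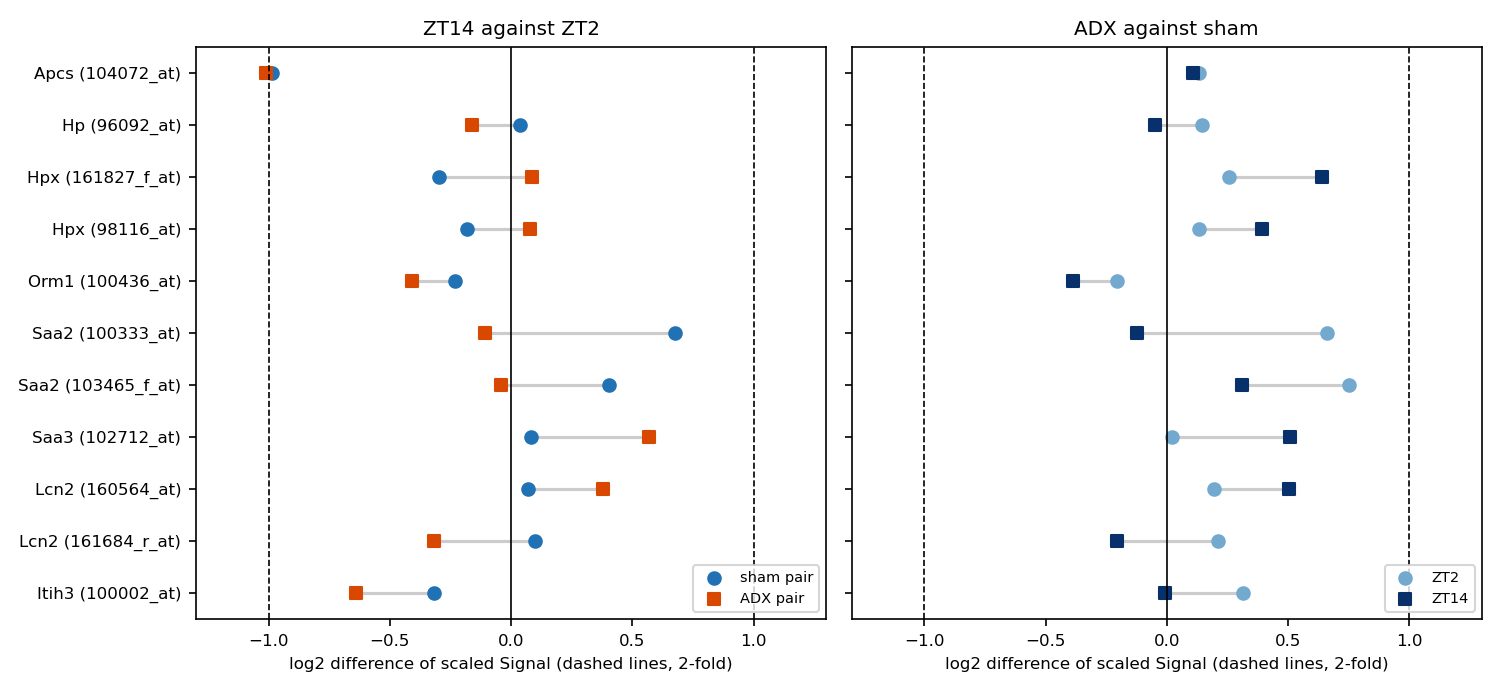
Log2 difference of scaled Signal (horizontal axis, dashed lines at 2-fold) of each member probe set, for ZT14 against ZT2 (left; circles sham, squares ADX) and for ADX against sham (right; circles ZT2, squares ZT14), 1 array per group and no error bars. Apcs lies at -0.98 and -1.01 on the left and near 0 on the right, and no other member reaches a dashed line.

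Both ADX signals were above both sham signals for 4 of 10 member probe sets (2 of Hpx, 1 of Saa2 and 1 of Lcn2), where 16.5% of the 5872 did, and below them for 0 of 10, where 12.6% did. Lcn2, Absent on both sham arrays, entered this set and the medians that follow only through its Present calls in ADX, so its place in the count followed from the filter. With signals as deposited the counts were 3 (all probe sets, 6.32%) and 1 (Orm1; 29.1%). The median log2 difference of ADX from sham was 0.17 at ZT2 and 0.21 at ZT14 over 10 member probe sets, beside 0.01 and 0.02 over all that could pass. For ZT14 against ZT2 it was -0.18 in sham (9 member probe sets) and -0.07 in ADX (10), beside -0.01 and -0.01. Some genes enter these member medians by 2 probe sets. With 1 probe set per gene, ADX from sham gave 0.14 and 0.21 (8 genes). The day-night values were then -0.18 in sham (7 genes) and -0.10 in ADX (8 genes). Signals as deposited moved the medians of all probe sets to -0.16 at ZT2 and -0.11 at ZT14 for the operation. Under that setting the ZT2 differences of Apcs, Hp, Hpx 98116_at and Saa3 turned to lower in ADX.

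Most other positive acute phase genes lay under 2-fold on these arrays, as did most probe sets that could pass. Of 25 measured genes in a list of further positive acute phase genes (a list made with earlier results of these data known), 3 passed the size rule as higher at ZT14 in sham (Saa4 and the metallothioneins Mt1 and Mt2) and 0 as lower. In ADX, 2 were higher (Mt1 and Mt2) and 2 lower. The lower ones were Lbp, which carries bacterial lipopolysaccharide, at 2.13-fold, and its partner receptor Cd14, at least 2.17-fold lower. The Cd14 call rests on an Absent ADX ZT14 array and ended with the floor at 23.9 units (log2 -0.66) and with both arrays required to be Present. Lbp had signals of 196.3, 150.9, 260.2 and 122.4, the same order of arrays as Itih3. The list's median log2 difference was -0.03 in sham and -0.10 in ADX. For ADX against sham it was 0.13 at ZT2, then -0.05 at ZT14, where 1 gene passed (Mt1, 2.81-fold higher in ADX). Beside these counts, 6.16% of all probe sets passed in the sham pair and 5.52% in the ADX pair. For ADX against sham the shares were 2.65% at ZT2 and 4.2% at ZT14. The fibrinogen gene Fgg (3250.8, 2318.3, 3435.5 and 1868.7) and the ferroxidase gene Cp (1629.8, 1192.1, 1556.6 and 992.5), both named after their values were seen, had lower signals at ZT14 on both operations without reaching 2-fold. So did Crp, the other short pentraxin, by 1.37-fold in sham and 1.29-fold in ADX, and it too was named after its values were seen.

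Of 12 plasma proteins that fall in the acute phase, 11 passed in no comparison, Alb (9148.7 to 9736.0) among them. The exception, past 2-fold in the ADX pair and in ADX against sham at ZT14, was Serpina6, the corticosteroid-binding globulin, with signals of 723.6, 1118.7, 616.3 and 2323.9. Its call at ZT14 ended with signals as deposited (log2 0.93). The shares of all probe sets past 2-fold were 6.16% in the sham pair and 5.52% in the ADX pair. For ADX against sham they were 2.65% at ZT2 and 4.2% at ZT14. The list's medians lay between -0.07 and -0.02.

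Most genes in a list of acute phase signalling, which holds inhibitors and targets of the signals as well as drivers, lay under 2-fold. So did most probe sets that could pass. Of 26 measured genes, 2 passed as higher and 1 as lower at ZT14 in sham, 0 in ADX, 1 as higher in ADX at ZT2 and 1 as lower in ADX at ZT14. Shares of all probe sets past 2-fold were 6.16% in the sham pair and 5.52% in the ADX pair. They were 2.65% and 4.2% for ADX against sham at ZT2 and ZT14. Il1r1, the interleukin 1 receptor, had signals of 27.0, 70.6, 42.4 and 41.1, so the sham ZT14 array stood apart at 2.61-fold above sham ZT2, as it did for Saa4. Socs2, an inhibitor of cytokine and growth hormone signalling, had 84.4, 32.3, 43.1 and 55, 2.61-fold lower at ZT14 in sham. It also passed as lower in ADX at ZT2 with signals as deposited (log2 -1.14) and with quantile normalization (-1.003), but not on the scaled signals (-0.97). Fkbp5, a glucocorticoid target, was the other one higher at ZT14 in sham, and it was the one lower in ADX at ZT14. Osmr, the oncostatin M receptor, was 2.09-fold higher in ADX at ZT2 on signals of 6.6 and 13.8, a call that ended with a doubled floor (log2 0.82), with quantile normalization and with signals as deposited.

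Stat3 stayed between 79.2 and 93.5, and Il6st, the shared receptor chain of interleukin 6, between 96.9 and 146.2. Among the C/EBP factors, Cebpb had 136.8 and 115.0 at ZT2 and 219.1 and 213.9 at ZT14, higher at ZT14 by 1.60-fold in sham and 1.86-fold in ADX, under 2-fold in each. Cebpa was 1.24-fold and 1.29-fold higher at ZT14, and Cebpd, at 27.4 to 39.5, was 1.22-fold lower in ADX at ZT2 and 1.39-fold at ZT14. Nr3c1, the glucocorticoid receptor, had low signals of 17.4, 21.1, 15.5 and 14.2. Socs3, a target of STAT3, had low signals of 10.8, 16.4, 16.5 and 8.9. Its call was Marginal on both sham arrays, Present on ADX ZT2 only and Absent on ADX ZT14. The interleukin 6 receptor Il6ra was Present on no array.

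**Figure D5:**
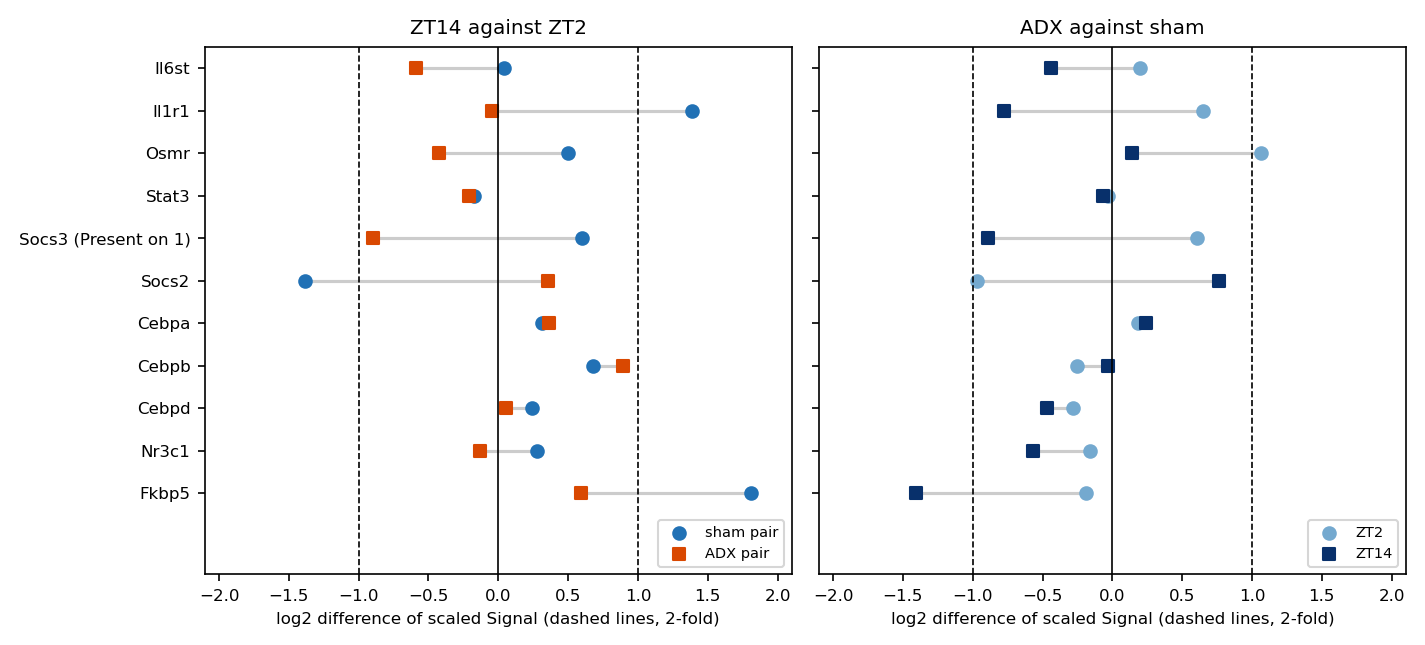
Log2 difference of scaled Signal (horizontal axis, dashed lines at 2-fold) of 11 signalling genes, for ZT14 against ZT2 (left; circles sham, squares ADX) and for ADX against sham (right; circles ZT2, squares ZT14), 1 array per group and no error bars. Stat3 and Cebpa give nearly the same value in both pairs, while Il1r1, Socs2 and Fkbp5 pass a dashed line in sham only on the left; the difference between pairs was not tested.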

How the data were processed

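Liver RNA of 4 groups was measured on 1 array each; groups and times come from the sample titles. Per the file headers, the deposited values are an absolute Signal for each probe set of 1 array, which is a linear intensity. The authors also deposited a p-value of detection, from which only the call of Present, Marginal or Absent was used. The scaling target and software were not given in the sources used here. Intensities in the value table of the whole series were the same (largest difference 0). Per the deposited run sheets, which hold other run settings of the arrays, all were hybridised on 1 day at 1 station. Each array had its own module there (sham ZT2 on 1, sham ZT14 on 2, ADX ZT2 on 3 and ADX ZT14 on 4), so module and group cannot be told apart.

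Each array was scaled to a common 2% trimmed mean (factors 0.925 and 0.977 for sham at ZT2 and ZT14, and 1.04 and 1.07 for ADX). Signals under a floor of 3.91 units were set to it, log2 was taken, and 66 control probe sets were left out. Genes were named from the platform annotation, in which 10833 probe sets have 1 symbol, 396 several and 1193 none. A gene of a list was read from its probe set of highest mean signal and was measured if any array called it Present. A fold against an array without a Present call is a lower bound against the floor or the dim signal, whichever is higher. Percentages of all probe sets past a fold refer to those Present on the brighter array (of both pairs, 5469, for the 2.43% lower in both), and those of the additive fit and of signals that do not overlap to the 5872 Present on at least 2 arrays.

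The additive fit ran in R 4.3.3 through lmFit and eBayes of limma 3.58.1, with Benjamini-Hochberg adjustment; nothing says that its arrays are separate animals of a group, so its p-values reflect no more than how these 4 arrays scatter, which may be technical. The remaining computations used Python 3.11.15, NumPy 2.4.6 and pandas 2.3.3. Named genes are all member probe sets, list genes past 2-fold, 8 signalling genes (Nr3c1, Stat3, Il6st, Il6ra, Cebpa, Cebpb, Cebpd and Socs3) whatever their values, cell markers that were Present where a member moved with them, and the 3 genes nearest to a member past 2-fold. Most others are said to be named after their values were seen. Alb and some cell markers were named beside a count. The members and lists were chosen with earlier results of these data known. The alternatives tried were other scaling, floors, detection filters, a 1.5-fold rule, variance models, covariates and averaged probe sets. The number of arrays limits the precision.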

Additional observations from a re-analysis of the deposited data

Results flagged for a closer look

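Several members went one way between the times of day in sham and the other way in ADX. With 1 array per group these differences were not tested, and each rests on a single array per point. As the ADX day-night log2 difference minus the sham one, the value was -0.20 for Hp, 0.38 for Hpx by 161827_f_at and 0.26 by 98116_at, -0.78 for Saa2 by 100333_at and -0.44 by 103465_f_at, and -0.42 for the Lcn2 probe set 161684_r_at, which was Present on no array. The sign in sham turned for Hp with signals as deposited and for that Lcn2 probe set with quantile normalization. For Itih3 the difference of ADX from sham was positive at ZT2 and close to 0 at ZT14, and the ZT14 value minus the ZT2 value was -0.32.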

How the results depend on the processing

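Of 44 member differences (11 probe sets in 4 comparisons), 9 took the opposite sign under at least 1 of 7 alternatives, none with a main log2 size above 0.15. Every such turn came with signals as deposited or with quantile normalization, the only alternatives that can turn a sign. A changed floor can bring a difference to 0 but not past it. The 1.5-fold rule and the rule of both arrays Present reuse the same differences. Apcs held both calls that moved: member calls in the sham pair became 1 with signals as deposited, and those in the ADX pair 0 with quantile normalization. With a 1.5-fold rule, member calls were 2 in sham (Apcs lower, Saa2 100333_at higher; all probe sets, 18.6%), 2 in ADX (Apcs and Itih3 lower; 17.4%), 2 for ADX against sham at ZT2 (both of Saa2 higher; 10.7%) and 1 at ZT14 (Hpx 161827_f_at higher; 14.9%). Calls among all probe sets, in the order sham pair, ADX pair, and ADX against sham at the earlier and the later time, were 367, 327, 160 and 244. They were 1110, 1033, 646 and 864 at 1.5-fold, 182, 144, 40 and 62 with both arrays Present, and 141, 120, 20 and 46 with the floor at 23.9 units. A doubled floor gave 77 and 135 for ADX against sham at ZT2 and ZT14.

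For these 4 comparisons, calls split as 211 higher and 156 lower, 177 and 150, 108 and 52, and 147 and 97. With quantile normalization the splits were 161 and 193, 147 and 201, 68 and 80, and 118 and 120, and with signals as deposited 173 and 198, 159 and 165, 69 and 90, and 106 and 137.

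The limma time effect called 2 probe sets. It called 1 over probe sets Present on all 4 arrays, 1 with a floor of 1 unit, 0 with no detection filter, 0 with a doubled floor, 0 with the floor at 23.9 units, 18 with signals as deposited, 11 without the term for operation and 154 with a variance trend, of which 1 was a member probe set (Apcs). The operation effect called 0, and 1 with quantile normalization, with signals as deposited, with a variance trend or without the term for time. Averaging all probe sets of a gene turned the median of the signalling list in sham from 0.19 to -0.01. The cause of these changes was not tested. No paired analysis was possible because the labels give no replicate numbers and each group has 1 array; for the same reason no array could be left out.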
